A study of Arabidopsis thaliana with 28 samples.

Results

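The nuclear photosynthesis genes of Arabidopsis were described here as 49 loci, chosen by a fixed list of locus identifiers, of the 33278 nuclear genes in the expression table. The list held 15 genes of the light-harvesting complex of photosystem II (LHCII), 6 of the light-harvesting complex of photosystem I (LHCI), 4 of the small subunit of Rubisco, 12 of photosystem I (PSI), 9 of photosystem II (PSII) and 3 of electron transfer. Chromosome 1 carried 20 of them, chromosome 2 carried 8, and chromosomes 3, 4 and 5 carried 7 each. The study compared an autotetraploid line, 4XCol-0, made with colchicine from the accession Col-0, with its diploid progenitor Col-0. The 4XCol-0 material came from 1 line, so ploidy and the history of that line cannot be told apart. All plants were grown on sucrose-containing medium in long days, and the aerial parts of 10-day seedlings were harvested.

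Photosystem II and photosystem I use light to move electrons from water to ferredoxin through the thylakoid membrane, and light-harvesting proteins bind the chlorophyll that feeds them. Rubisco fixes CO2 in the stroma, and its small subunit is encoded in the nucleus while its large subunit is encoded in the chloroplast. In green seedlings the nuclear genes of this machinery are among the most strongly transcribed. H3K4me3 is a histone mark of the 5′ part of transcribed genes, and H3K27me3 is the mark that Polycomb complexes place on repressed genes.

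RNA was given as FPKM (fragments scaled by gene length and library size), with 1 deposited value per gene and genotype although the labels list 3 RNA-seq replicates per genotype. These values therefore have no error and allow no test here, and the depth behind them is unknown. The study itself tested expression on its replicates with DESeq2, and its list of changed genes was not used here. FPKM is a share of a library, so RNA per cell was not measured, and in bulk tissue fewer cells of a type and less RNA per cell cannot be told apart. Histone marks were given as peaks, in 2 H3K4me3 and 2 H3K27me3 libraries per genotype and 1 anti-H3 library per genotype. The label of green tissue fitted its RNA, since these 49 loci, 0.147% of the nuclear genes, held 23.6% of the summed nuclear FPKM in 4XCol-0 and 24.8% in Col-0. Although aerial parts were harvested, all 5 root markers had at least 1 FPKM. They ran from 1.81 to 61.8 FPKM in 4XCol-0 and from 1.29 to 76.6 FPKM in Col-0. The highest in both was CASP1, a protein of the root endodermis. Whether root tissue was among the material was not tested. All 5 lay under H3K27me3 peaks in all 4 libraries with no H3K4me3 peak in any library. Of 3 seed storage markers, SESA1 was listed at 0 in both genotypes, OLEO1 had 0.419 FPKM in 4XCol-0 and 0.249 FPKM in Col-0, and CRA1 had 3.66 FPKM in 4XCol-0 and 1.93 FPKM in Col-0, with H3K4me3 and H3K27me3 peaks in all 4 libraries of each mark.

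Photosynthesis transcripts filled the top of both transcriptomes. Of the 100 nuclear genes with the highest FPKM, 41 in 4XCol-0 and 40 in Col-0 were photosynthesis genes. LHCB1.2 (AT1G29910), a protein of the LHCII trimer, ranked first in 4XCol-0 and second in Col-0, with 15057 and 16063 FPKM. PSBR (AT1G79040), a lumenal-side subunit of photosystem II, ranked second in 4XCol-0 and first in Col-0, with 14743 and 16305 FPKM. LHCB1.1 (AT1G29920), another trimer protein, held rank 3 in both, with 11111 FPKM in 4XCol-0 and 11817 FPKM in Col-0. LHCA1 (AT3G54890) and LHCA4 (AT3G47470), antenna proteins that pair in LHCI, came next by mean FPKM, with 9727 and 9844 FPKM in 4XCol-0 and 10411 and 9537 FPKM in Col-0. None of these 5 values moved by more than 0.15 on the log2 scale between the genotypes.

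**Figure D1:**
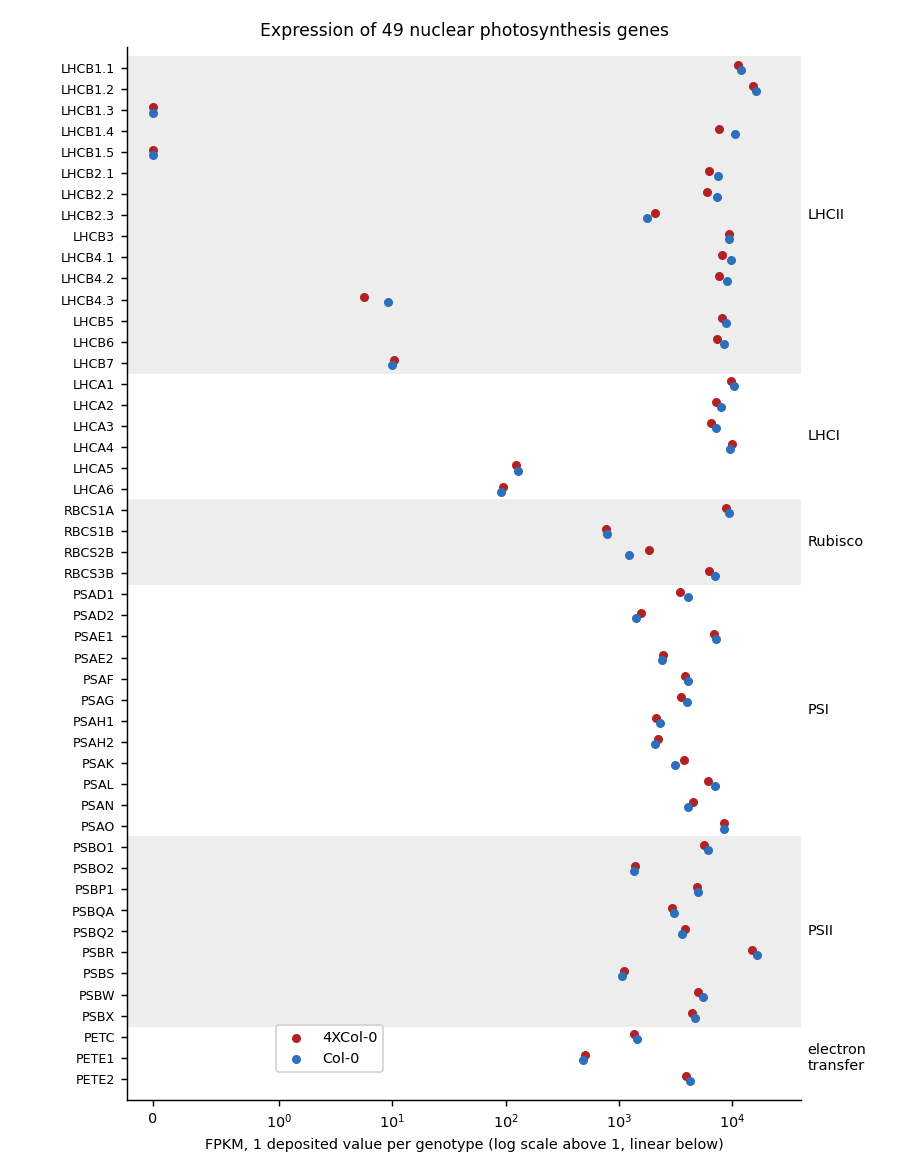
Deposited FPKM of each of the 49 photosynthesis genes in 4XCol-0 (red) and Col-0 (blue), 1 value per genotype with no error, on an axis that is logarithmic above 1 FPKM and linear below, with genes grouped by class. Most genes lie above 1000 FPKM with both genotypes close together, while LHCB4.3 and LHCB7 lie near 10 FPKM and LHCB1.3 and LHCB1.5 are listed at 0.

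No photosynthesis gene changed by 2-fold in either direction. In the whole table, 1.1% of the 18346 genes with at least 1 FPKM in a genotype were at least 2-fold higher in 4XCol-0 and 0.725% at least 2-fold lower. Of the 47 photosynthesis genes with a value above 0, 14 were higher and 33 lower in 4XCol-0, with a median log2 ratio of −0.09 and a range of −0.60 to 0.58 on the log2(FPKM + 1) scale. Over all 18346 genes the median was 0.08, and 38.6% were lower. After scaling the genotypes to a common upper quartile, which shifted the ratios by −0.07, the photosynthesis genes had a median of −0.16 with 8 higher and 39 lower, against a median of 0.02 and 47.5% lower over all genes. The 77 other nuclear genes with at least 1000 FPKM in a genotype had a median of −0.15, and 67.5% of them were lower in 4XCol-0, against 70.2% of the photosynthesis genes. The small shift toward lower values was also present in these other genes of very high FPKM. They are not a set free of photosynthesis, since they include genes such as RCA and PSBTN, given below. The shift was not tested for lack of replicate values. Of the 5 root markers, 4 were also lower in 4XCol-0, with a median log2 ratio of −0.32 and a summed level of 93.7 FPKM in 4XCol-0 and 126 FPKM in Col-0. The part of a difference in tissue makeup in these shifts was not tested.

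**Figure D2:**
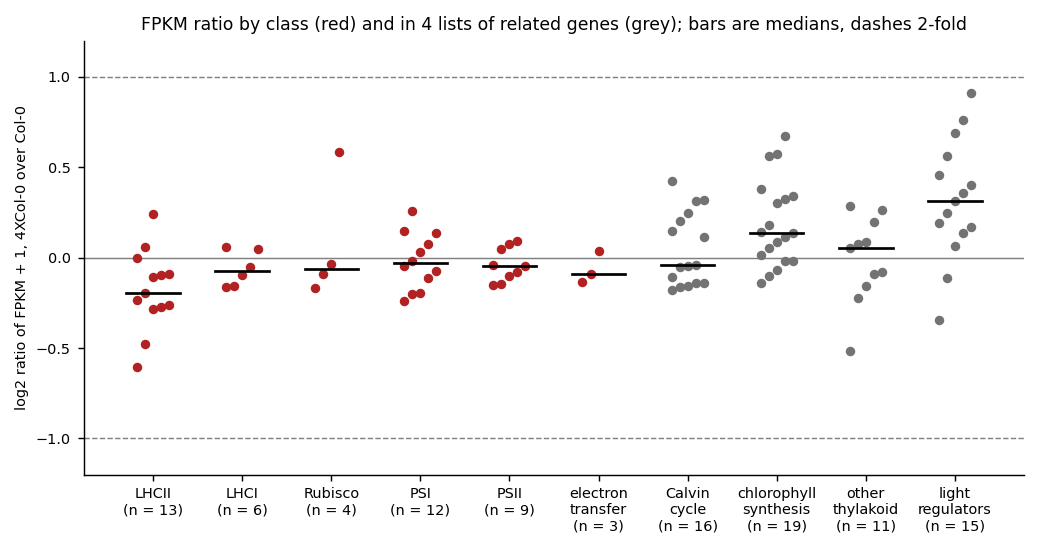
The log2 ratio of FPKM + 1, 4XCol-0 over Col-0, for each photosynthesis gene by class (red, without LHCB1.3 and LHCB1.5, which are listed at 0) and for 4 lists of related genes (grey, genes of at least 1 FPKM), with medians as bars and 2-fold as dashes. All points lie within the 2-fold lines, the LHCII median is −0.19 and that of the light regulators is 0.31.

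The LHCII proteins, which form the trimers and the minor antennae around photosystem II, had the lowest class median, −0.19, with 2 genes higher and 11 lower in 4XCol-0. Summed over the class, FPKM was 88477 in 4XCol-0 and 100154 in Col-0. LHCB1.4 (AT2G34430) had 7627 FPKM in 4XCol-0 and 10614 FPKM in Col-0, a log2 ratio of −0.48. LHCB4.1 (AT5G01530), the CP29 antenna protein, had 8029 and 9768 FPKM, a ratio of −0.28. Its rare paralogue LHCB4.3 (AT2G40100) gave the lowest ratio of all, −0.60, at 5.65 FPKM in 4XCol-0 and 9.11 FPKM in Col-0. LHCB2.3 (AT3G27690) stood on the other side, with 2091 FPKM in 4XCol-0 and 1770 FPKM in Col-0, a ratio of 0.24, while LHCB2.1 (AT2G05100) and LHCB2.2 (AT2G05070) had ratios of −0.26 and −0.28. The summed FPKM of the 3 LHCB2 genes was 14333 in 4XCol-0 and 16525 in Col-0. In the transcripts of LHCB2.1 and LHCB2.2, 20.2% and 28.2% of stretches of 50 bases also occurred in another transcript, against 0% for LHCB2.3. The separate values of LHCB2.1 and LHCB2.2 therefore depend on how shared reads were counted. LHCB3 (AT5G54270), also a trimer protein, had 9275 FPKM in 4XCol-0 and 9283 FPKM in Col-0. LHCB7 (AT1G76570), a rarely expressed antenna gene, had 10.4 FPKM in 4XCol-0 and 9.93 FPKM in Col-0.

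LHCB1.3 (AT1G29930) and LHCB1.5 (AT2G34420) were listed at 0 in both genotypes. Both lay under H3K4me3 peaks in all 4 libraries, which covered 85.0% and 91.7% of LHCB1.3 in 4XCol-0 and 91.4% and 33.4% in Col-0, and 76.0% and 100% of LHCB1.5 in 4XCol-0 and 98.9% and 69.4% in Col-0. Such a pairing was rare, since 1.13% of the 14742 genes with a peak in all 4 libraries were listed at 0 in both genotypes. The 5 LHCB1 genes lie in a group of 3 at chr1:10472280-10479048 and a pair on chromosome 2 separated by 1187 bases (TAIR10 coordinates). Their coding sequences are most alike within the group and within the pair. LHCB1.3 matched LHCB1.2 at 96.4% and LHCB1.1 at 96.1% of aligned coding bases, and LHCB1.5 matched LHCB1.4 at 92.5%. Between the group and the pair the match ran from 87.4% (LHCB1.1 and LHCB1.3 with LHCB1.4) to 91.1% (LHCB1.2 with LHCB1.5). Of the stretches of 50 bases in the LHCB1.3 transcript, 17.0% also occurred in the transcript of another gene, most often LHCB1.1, and 17.3% of those of LHCB1.5 did, most often from LHCB1.4. The methods name STAR and featureCounts with default parameters and do not spell out how reads that match several genes were treated. The division of FPKM among the copies is therefore uncertain, and the part of shared reads in the 0 values was not tested. The sum over all 5 genes, 33795 FPKM in 4XCol-0 and 38493 FPKM in Col-0, gave a log2 ratio of −0.19. The starts of the 5 coding sequences are shown because they display which bases tell the copies apart, read 5′ to 3′ on the coding strand from the RefSeq TAIR10.1 genome, with bases that differ from LHCB1.3 in capitals.
LHCB1.1: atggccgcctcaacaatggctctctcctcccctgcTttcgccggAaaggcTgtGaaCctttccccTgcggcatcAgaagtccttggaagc
LHCB1.2: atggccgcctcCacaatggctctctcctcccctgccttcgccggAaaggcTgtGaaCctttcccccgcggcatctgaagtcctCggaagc
LHCB1.3: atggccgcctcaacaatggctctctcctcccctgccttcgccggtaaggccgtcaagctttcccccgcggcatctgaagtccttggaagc
LHCB1.4: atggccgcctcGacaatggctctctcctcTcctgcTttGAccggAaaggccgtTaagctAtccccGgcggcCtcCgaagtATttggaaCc
LHCB1.5: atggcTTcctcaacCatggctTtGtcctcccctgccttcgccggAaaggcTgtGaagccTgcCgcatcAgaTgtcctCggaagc
Over these first 90 bases LHCB1.2 differed from LHCB1.3 at 6 bases and LHCB1.1 at 7. LHCB1.4 differed at 14 bases, and LHCB1.5, which lacks 6 of the bases, at 13.

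The LHCI genes kept close together. LHCA2 (AT3G61470) had 7110 FPKM in 4XCol-0 and 7927 FPKM in Col-0, and LHCA3 (AT1G61520) had 6407 and 7179 FPKM, the lowest ratios of the class at −0.16 each. The rare antenna proteins LHCA5 (AT1G45474) and LHCA6 (AT1G19150), which in Arabidopsis link photosystem I to the NADH dehydrogenase-like complex, had 124 and 94.2 FPKM in 4XCol-0 and 128 and 90.4 FPKM in Col-0. The class had 2 genes higher and 4 lower, and after upper-quartile scaling all 6 were lower.

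The small subunit of Rubisco is encoded by RBCS1A (AT1G67090) on chromosome 1 and by RBCS1B (AT5G38430), RBCS2B (AT5G38420) and RBCS3B (AT5G38410) in a row on chromosome 5. RBCS2B had the highest ratio of all photosynthesis genes, with 1848 FPKM in 4XCol-0 and 1232 FPKM in Col-0, a log2 ratio of 0.58, or 0.51 after upper-quartile scaling. The other 3 had lower values in 4XCol-0. RBCS1A had 8695 FPKM in 4XCol-0 and 9250 FPKM in Col-0, RBCS3B had 6256 and 7031 FPKM, and RBCS1B had 768 and 788 FPKM. RBCS2B held 10.5% of the summed RBCS FPKM in 4XCol-0 and 6.73% in Col-0, whereas the sum itself was 17567 FPKM in 4XCol-0 and 18301 FPKM in Col-0, a log2 ratio of −0.06. RBCS2B matched RBCS1B at 97.3% and RBCS3B at 96.8% of aligned coding bases, and 21.4% of its stretches of 50 bases occurred in another transcript, so its value depends on how reads shared by the copies were counted. The first 90 coding bases of the 3 neighbours are shown with the bases that differ from RBCS3B in capitals.
RBCS1B: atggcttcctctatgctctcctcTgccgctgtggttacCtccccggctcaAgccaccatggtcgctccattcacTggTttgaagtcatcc
RBCS2B: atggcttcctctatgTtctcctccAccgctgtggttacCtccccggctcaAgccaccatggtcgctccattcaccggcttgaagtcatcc
RBCS3B: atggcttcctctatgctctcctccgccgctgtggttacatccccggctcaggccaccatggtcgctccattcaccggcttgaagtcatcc
RBCS2B differed from RBCS3B at 4 of these bases and RBCS1B at 5.

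The promoters of the 4 RBCS genes are shown because they carry the light-response motifs for which this family is known, each as the 250 bases before the gene start in the expression table, read toward the gene. Capitals mark the G-box CACGTG, the I-box GATAAG (or its reverse complement), the TATA box TATAAA and the evening element AAAATATCT on either strand. They lie at chr1:25049425-25049674, chr5:15385248-15385497, chr5:15382036-15382285 and chr5:15378417-15378666, all on the minus strand.
RBCS1A promoter: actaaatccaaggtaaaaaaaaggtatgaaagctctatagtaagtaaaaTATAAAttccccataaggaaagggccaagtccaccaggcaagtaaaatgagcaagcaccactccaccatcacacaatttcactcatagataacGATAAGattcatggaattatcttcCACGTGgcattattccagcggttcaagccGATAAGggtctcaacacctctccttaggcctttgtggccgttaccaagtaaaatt
RBCS1B promoter: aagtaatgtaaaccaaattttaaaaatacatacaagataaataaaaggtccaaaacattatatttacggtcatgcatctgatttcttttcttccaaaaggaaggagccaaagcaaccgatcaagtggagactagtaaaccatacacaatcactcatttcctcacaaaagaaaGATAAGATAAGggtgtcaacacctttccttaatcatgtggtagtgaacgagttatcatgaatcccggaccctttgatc
RBCS2B promoter: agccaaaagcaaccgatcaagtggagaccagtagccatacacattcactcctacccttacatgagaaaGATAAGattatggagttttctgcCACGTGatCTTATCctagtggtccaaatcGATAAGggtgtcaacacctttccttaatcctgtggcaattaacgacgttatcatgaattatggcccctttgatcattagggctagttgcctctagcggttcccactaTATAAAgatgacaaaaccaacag
RBCS3B promoter: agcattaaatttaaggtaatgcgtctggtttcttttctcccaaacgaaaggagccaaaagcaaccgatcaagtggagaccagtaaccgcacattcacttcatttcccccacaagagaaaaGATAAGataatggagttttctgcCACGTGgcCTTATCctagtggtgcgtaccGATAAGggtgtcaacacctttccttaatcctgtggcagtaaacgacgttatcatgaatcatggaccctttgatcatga
All 4 RBCS promoters held an I-box, and RBCS1A, RBCS2B and RBCS3B also held a G-box. RBCS1B, which had the lowest FPKM of the 4 in both genotypes, held no G-box in this window. Its RefSeq transcript, with 1894 bases, is longer than its span of 1131 bases in the expression table, so its start is uncertain. RBCS1A and RBCS2B held a TATA box as spelled here, toward the far end of the window in RBCS1A and near the gene start in RBCS2B.

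Of the 12 photosystem I genes, 5 were higher and 7 lower in 4XCol-0, with a median of −0.03. PSAK (AT1G30380), a subunit on the antenna side of the complex, had 3710 FPKM in 4XCol-0 and 3098 FPKM in Col-0, a log2 ratio of 0.26, the second highest ratio of the 49. PSAN (AT5G64040), a lumenal subunit, had 4487 and 4049 FPKM. PSAD1 (AT4G02770), which with PSAD2 encodes the ferredoxin-docking subunit D, had the lowest ratio of the class, −0.24, with 3463 FPKM in 4XCol-0 and 4094 FPKM in Col-0. Its paralogue PSAD2 (AT1G03130), with the lowest level of the class, moved the other way with 1551 and 1409 FPKM, and their sum was 5014 FPKM in 4XCol-0 and 5503 FPKM in Col-0. PSAO (AT1G08380) had the highest level, with 8353 and 8446 FPKM.

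The 9 photosystem II genes ranged from −0.15 to 0.09. PSBW (AT2G30570), a small subunit, and PSBR lay at the lower end with log2 ratios of −0.15 each, and PSBQ2 (AT4G05180) of the oxygen-evolving complex lay at the upper end with 3832 FPKM in 4XCol-0 and 3596 FPKM in Col-0. PSBS (AT1G44575), which is required for the dissipation of excess light energy, had the lowest level of the class, with 1112 FPKM in 4XCol-0 and 1057 FPKM in Col-0. The paralogues PSBO1 (AT5G66570) and PSBO2 (AT3G50820) of the oxygen-evolving complex had 5614 and 1394 FPKM in 4XCol-0 and 6024 and 1351 FPKM in Col-0. In electron transfer, PETC (AT4G03280), the Rieske protein of the cytochrome b6f complex, had 1343 and 1428 FPKM. Plastocyanin came mainly from PETE2 (AT1G20340), with 3864 FPKM in 4XCol-0 and 4238 FPKM in Col-0, and less from PETE1 (AT1G76100), with 499 and 486 FPKM. The plastocyanin genes matched at 75.0% of aligned coding bases and shared no stretch of 50 bases.

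A neighbour on the other strand overlaps 9 of these genes, namely LHCB1.5, LHCB3, LHCB4.2, LHCB6, LHCA4, LHCA5, PSAE2, PSAH1 and PSBR. LHCB1.5, listed at 0, overlaps AT2G34410. The methods name default parameters for the counting and do not spell out whether strand was used.

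The H3K4me3 libraries were next asked whether the mark on these genes differed between the genotypes. Every one of the 49 genes lay under a peak in both 4XCol-0 libraries and in Col-0 replicate 1, and 46 did in Col-0 replicate 2, where LHCB1.2, RBCS1B and PSAH2 (AT1G52230) had none. These 3 genes had fold enrichments, the ratio of signal at a peak to its control, of 3.50 and 2.32 for LHCB1.2, 3.24 and 3.58 for RBCS1B and 2.94 and 2.52 for PSAH2 in 4XCol-0. In Col-0 replicate 1 they had 3.31, 2.56 and 3.19. In comparison, 45.9% to 50.6% of all nuclear genes had a peak, depending on the library, and 87.0% to 91.0% of the 1627 genes with at least 100 FPKM in a genotype.

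The marked region covered most of these short genes. The median photosynthesis gene had 72.2% and 81.3% of its body under H3K4me3 peaks in 4XCol-0, and 79.1% and 60.1% in Col-0. For genes with at least 100 FPKM the medians were 38.8% and 42.4% in 4XCol-0 and 38.1% and 34.0% in Col-0. The peaks on photosynthesis genes were also wider, with medians of 702 and 934 bases in 4XCol-0 and 954 and 704.5 bases in Col-0, against 595 and 643 bases and 597.5 and 533 bases for all genes with a peak. At the same time these genes were short, with a median of 1204 bases, whereas all genes with a peak had medians of 2243.5 to 2263 bases, and the part of gene length in the covered share was not tested. The highest point of the peak lay 234 and 267 bases after the gene start in 4XCol-0 and 264 and 241.5 bases in Col-0 (medians), near the 276 to 281 bases of all genes with a peak.

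The relation of covered share to RNA level among these genes is given as a description, and it depended on which genes were taken. Over the 44 photosynthesis genes with FPKM above 0 and a peak in all 4 libraries, Pearson's r between log2 FPKM and covered share was 0.62 and 0.75 in 4XCol-0 and 0.67 and 0.50 in Col-0, with Spearman's rho of 0.50 and 0.51, and 0.45 and 0.39. Over all 49 genes, on the log2(FPKM + 1) scale, r was 0.32 and 0.36 in 4XCol-0 and 0.28 and 0.31 in Col-0, and rho was 0.43 and 0.38 in 4XCol-0 and 0.29 and 0.36 in Col-0. The 44 leave out LHCB1.3 and LHCB1.5, with wide peaks and FPKM listed at 0, and LHCB1.2, RBCS1B and PSAH2, with no peak in Col-0 replicate 2. These points share libraries and the FPKM value of a genotype, and several are near-identical copies. For fold enrichment, r was 0.24 and 0.33 in 4XCol-0 and 0.26 in each Col-0 library, and rho was 0.09 and 0.20 in 4XCol-0 and 0.08 and 0.10 in Col-0. Among the lower values, LHCB7 was covered by 22.8% and 25.1% in 4XCol-0 and 24.1% and 20.7% in Col-0, and LHCB4.3 by 33.2% and 33.2% in 4XCol-0 and 33.4% and 32.2% in Col-0. Among the highest, PSAG (AT1G55670), a subunit on the antenna side of photosystem I, was covered by 100% and 98.2% in 4XCol-0 and 100% and 95.3% in Col-0.

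**Figure D3:**
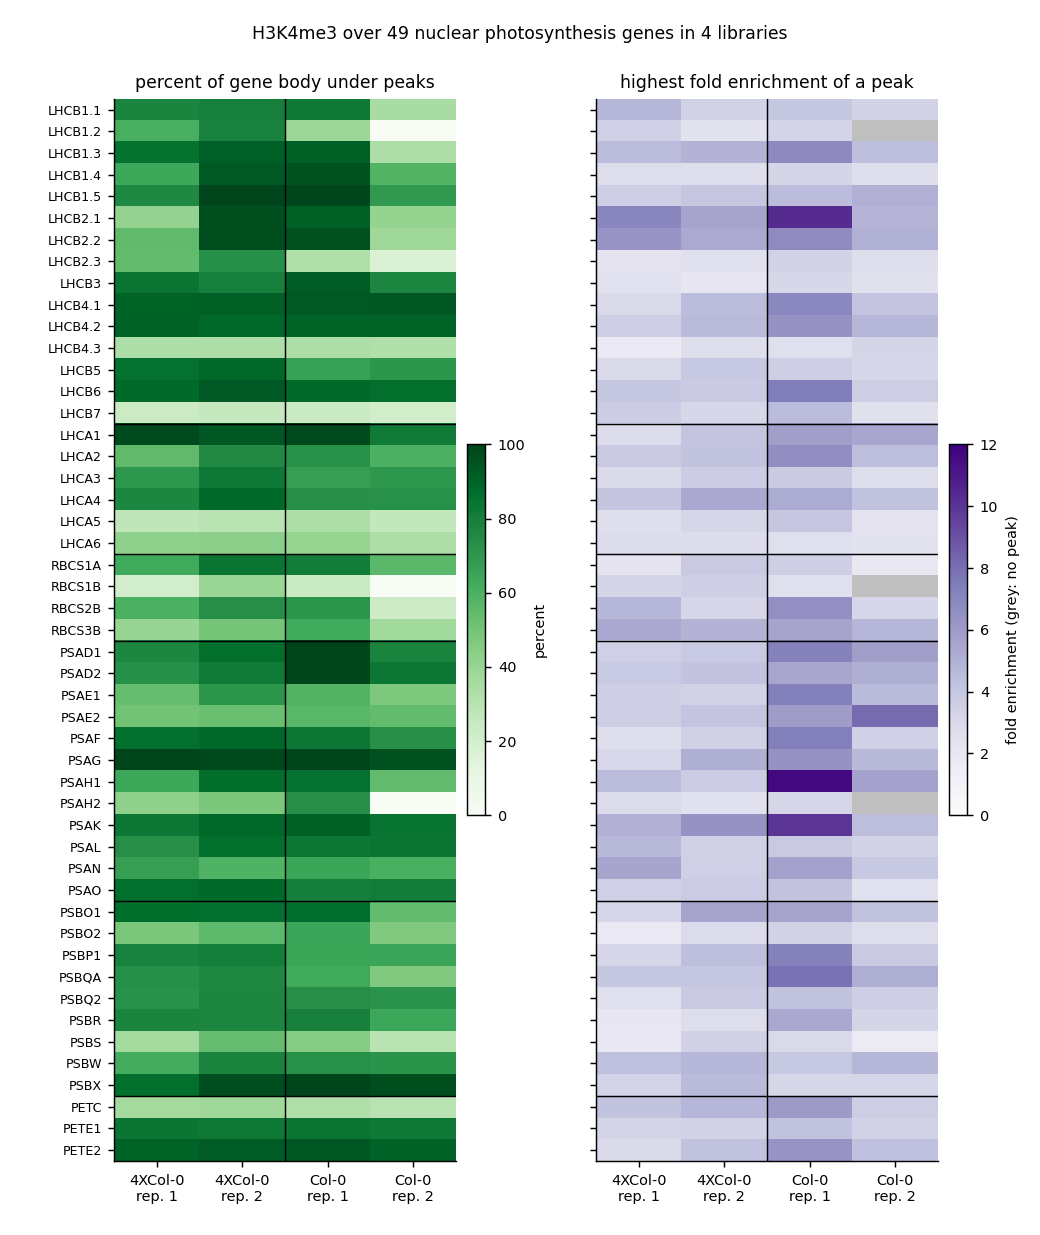
H3K4me3 over each of the 49 photosynthesis genes in the 4 libraries, as the percent of the gene body under peaks (left, green) and as the highest fold enrichment of a peak over the gene (right, purple), with lines between classes and between genotypes. Col-0 replicate 2 is paler on the left and has 3 genes with no peak (grey on the right), and Col-0 replicate 1 holds the highest fold enrichments, such as 11.6 on PSAH1.

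Fold enrichment did not change on any photosynthesis gene at an adjusted p under 0.05. With limma, on log2 fold enrichment centred per library, 0 of the 46 photosynthesis genes with a peak in all 4 libraries passed, against 0.0746% of the 14742 genes tested (11 genes). At an unadjusted p under 0.05, 8 of the 46 (17.4%) were lower and none higher in 4XCol-0. Of all 14742 genes tested, 6.49% were lower and 633 genes were higher. Both 4XCol-0 libraries lay below both Col-0 libraries for 11 of the 46 photosynthesis genes (23.9%; 19.7% of all genes) and above for 6 (13.0%; 20.4% of all genes). The median difference of the 46 was −0.06 and that of all genes 0.02 on the log2 scale.

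PSAH1 (AT3G16140), PSAE2 (AT2G20260) and PSAD1, which encode the H, E and D subunits of photosystem I, had the smallest p-values. PSAH1 had fold enrichments of 4.52 and 3.66 in 4XCol-0 and 11.6 and 5.68 in Col-0, which differed by −0.82 on the log2 scale (SE 0.25, limma adjusted p = 0.196). PSAE2 had 3.56 and 4.12 in 4XCol-0 and 5.89 and 8.07 in Col-0, a difference of −0.66 (SE 0.25, limma adjusted p = 0.310). PSAD1 had 3.53 and 3.88 in 4XCol-0 and 7.17 and 5.81 in Col-0, a difference of −0.62 (SE 0.25, limma adjusted p = 0.334). In each of them the genotypes did not overlap, which adds no support because they were picked by small p in these same libraries. The Col-0 libraries differed from each other by more than the 4XCol-0 libraries did in each. The other genes of the 8 were PSBR, PSAE1, LHCA1, PSBQA and PSAF (AT1G31330), the plastocyanin-docking subunit. PSBR, with 2.04 and 2.75 in 4XCol-0 and 5.35 and 3.26 in Col-0, had a difference of −0.63 (SE 0.26, limma adjusted p = 0.359). At the other end, PSBX (AT2G06520), a small photosystem II subunit, had 3.31 and 4.57 in 4XCol-0 and 3.17 and 3.20 in Col-0, a difference of 0.47 (SE 0.26, limma adjusted p = 0.523). The levels themselves ran from LHCB2.1, with 6.96 and 5.61 in 4XCol-0 and 10.3 and 4.86 in Col-0, through PETE2, with 2.96 and 4.26 in 4XCol-0 and 6.29 and 4.31 in Col-0, to LHCB3, with 2.42 and 2.08 in 4XCol-0 and 3.12 and 2.46 in Col-0.

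These fold enrichment differences depended on single Col-0 libraries. Without Col-0 replicate 1 the median difference of the photosynthesis genes was 0.10, and without Col-0 replicate 2 it was −0.21. The difference of PSAH1 was −0.37 without Col-0 replicate 1 and −1.28 without Col-0 replicate 2. PSAE2 moved the other way, to −0.96 without Col-0 replicate 1 and −0.38 without Col-0 replicate 2. Each of these fits leaves 1 Col-0 library. The number of genes called in the whole table was 86 without Col-0 replicate 1, 227 without Col-0 replicate 2, and 5 and 0 without 4XCol-0 replicates 2 and 1. Inside the H3K4me3 peak lists, the peak names end in the word merge for 4XCol-0 replicate 1 and Col-0 replicate 2 and in Rep4 for 4XCol-0 replicate 2 and Col-0 replicate 1. Between the libraries named merge the median difference of the 46 genes was 0.13, with 25 higher and 21 lower in 4XCol-0, and between those named Rep4 it was −0.19, with 14 higher and 32 lower, so the direction did not hold within both. What the words mean is not given in the sources used here, nor is whether these lists share reads, and the p-values measure only the spread between these lists.

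The covered share did not change on any gene at an adjusted p under 0.05. In limma 0 of 17257 genes passed (0%; 1859 at an unadjusted p under 0.05), and so 0 of the 49 photosynthesis genes did. At an unadjusted p under 0.05, 4 photosynthesis genes were higher in 4XCol-0 (8.16%; 10.1% of all genes tested). In the same way 1 of the 49, LHCB4.1, was lower, as were 111 of the 17257 genes tested. LHCB4.1 had 89.9% and 91.1% in 4XCol-0 and 93.6% and 93.8% in Col-0. Both 4XCol-0 libraries lay above both Col-0 libraries for 11 of the 49 (22.4%; 37.7% of all genes) and below for 4 (8.16%; 4.93% of all genes). The median difference was 3.83 percentage points for photosynthesis genes and 1.99 for all genes tested, with 33 of the 49 above 0. Without Col-0 replicate 2 the median was −2.09 with 15 above 0 and 34 below, so the direction rested on that library. PSBP1 (AT1G06680), of the oxygen-evolving complex, had the smallest p, with 78.3% and 80.4% covered in 4XCol-0 and 64.7% and 65.1% in Col-0, a difference of 14.5 points (SE 1.75, limma adjusted p = 0.208). LHCB5 (AT4G10340), the CP26 antenna protein, was covered by 85.3% and 88.5% in 4XCol-0 and 66.2% and 70.6% in Col-0, a difference of 18.5 points (SE 2.51, limma adjusted p = 0.224). PSAO was covered by 86.1% and 87.9% in 4XCol-0 and 80.0% and 80.8% in Col-0, a difference of 6.59 points (SE 1.3, limma adjusted p = 0.293). In each of these 3 genes the gap between the genotypes was wider than that between the libraries of a genotype. They were picked by small p in these same libraries, so this gap adds no support. LHCB2.3, the other gene of the 4, was covered by 54.0% and 72.9% in 4XCol-0 and 32.3% and 16.6% in Col-0. Its difference was 39.0 points (SE 9.84, limma adjusted p = 0.365). With only peaks of −log10 q of at least 10, the difference was 26.7 points for PSBP1 (SE 1.80, limma adjusted p = 0.0616) and 47.0 points for PSAO (SE 33.1, limma adjusted p = 0.747).

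H3K27me3 was nearly absent from the photosynthesis genes. RBCS2B alone lay under a peak, in all 4 libraries, so 1 of 49 genes (2.04%) was marked, whereas 22.4% to 23.2% of all nuclear genes and 8.54% to 9.04% of the genes with at least 100 FPKM were. The median distance of a photosynthesis gene from the nearest H3K27me3 peak was 10453 and 10433 bases in 4XCol-0 and 10759 and 10325 bases in Col-0. Few others came near a peak, as LHCA6 lay 356 and 345 bases away in 4XCol-0 and 317 and 190 bases in Col-0, and RBCS3B lay 582 and 706 bases away in 4XCol-0 and 638 and 694 bases in Col-0.

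RBCS2B, at chr5:15380945-15382035 on the minus strand, is the gene with the highest FPKM ratio, and its H3K27me3 peaks were shorter in 4XCol-0. They measured 392 and 410 bases in 4XCol-0 and 939 and 820 bases in Col-0. Their −log10 q was low, 2.39 and 5.04 in 4XCol-0 and 2.86 and 2.85 in Col-0. The lowest value of any peak in these libraries was 1.02 to 1.05. The peaks covered 35.9% and 37.6% of RBCS2B in 4XCol-0 and 86.1% and 75.2% in Col-0, a difference of −43.9 points (SE 6.07, limma adjusted p = 0.322). This fit was added after the data had been seen, it called 0.251% of the 8372 genes tested, and the genotypes did not overlap in this direction for 11.6% of them. The fold enrichment of the same peaks was low in both genotypes, 2.02 and 2.49 in 4XCol-0 and 1.97 and 2.23 in Col-0, with a centred log2 difference of 0.16 (SE 0.09, limma adjusted p = 0.477, against 0.219% of 6840 genes called). In Col-0 the peaks reached almost to the gene start, at chr5:15380991-15381929 and chr5:15381122-15381941, and in 4XCol-0 they kept to the 3′ part, at chr5:15380981-15381372 and chr5:15381057-15381466. H3K4me3 lay on the 5′ part of RBCS2B in all 4 libraries and covered 59.4% and 73.7% of it in 4XCol-0 and 70.9% and 22.1% in Col-0. RBCS1B, 2081 bases away, and RBCS3B, 2528 bases away, carried no H3K27me3 peak in any library, while a short peak between RBCS2B and RBCS3B was present in all 4. How reads that fit several of these near-identical genes were placed in the ChIP-seq alignment is not given in the sources used here, and its part in the RBCS2B peaks was not tested.

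**Figure D4:**
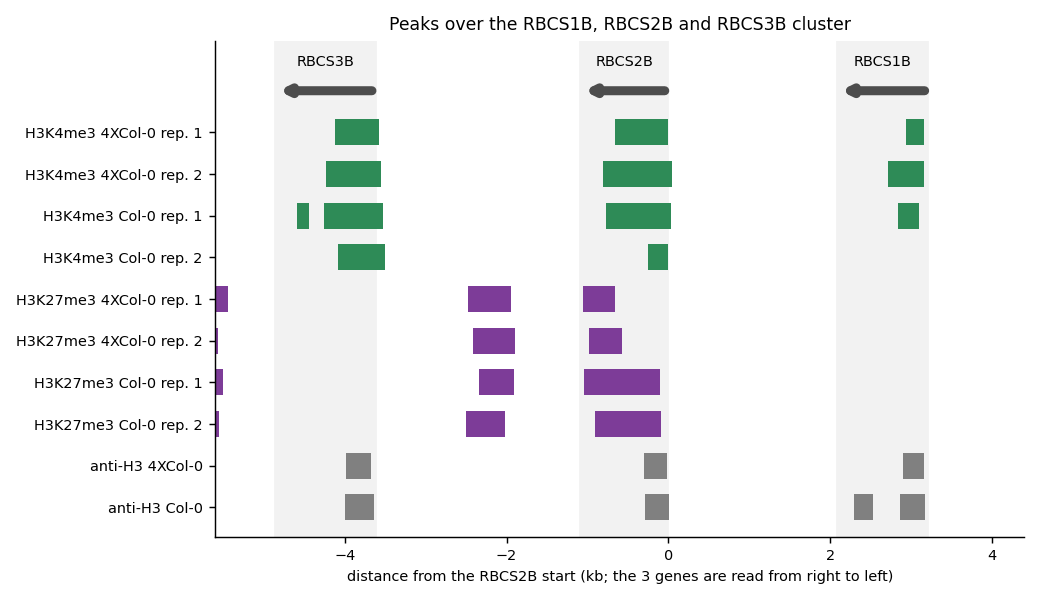
Peaks of H3K4me3 (green), H3K27me3 (purple) and anti-H3 (grey) in each library over the RBCS3B, RBCS2B and RBCS1B genes (grey bands with arrows), by distance from the RBCS2B start in kb, with 4XCol-0 libraries above Col-0 libraries. The H3K27me3 peaks on RBCS2B are 392 and 410 bases long in 4XCol-0 and 939 and 820 bases in Col-0, and the other RBCS genes have none.

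Peaks of the anti-H3 libraries, whose reads the study's methods name as the control for the modified histones, lay on 44 of the 49 photosynthesis genes in 4XCol-0 and on 43 in Col-0. Of all nuclear genes 47.3% in 4XCol-0 and 43.7% in Col-0 had such a peak, and of the genes with at least 100 FPKM 57.2% and 53.1%. LHCB5, LHCB7, PSAH2, PSAN and PETC had none in either genotype, and PSBW had one in 4XCol-0 and none in Col-0. The median share of a photosynthesis gene under anti-H3 peaks was 43.0% in 4XCol-0 and 40.3% in Col-0, against 15.0% and 12.8% for genes with at least 100 FPKM. The LHCII genes had the highest class medians, 74.0% in 4XCol-0 and 75.5% in Col-0. The part of these anti-H3 levels in the H3K4me3 fold enrichments was not tested. With 1 anti-H3 library per genotype the difference between genotypes has no replicate check.

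The promoters of these genes often held light-response motifs, counted as exact matches on either strand of the 250 bases before the gene start. The G-box CACGTG was found in 21 of the 49 promoters (42.9%), against 6.74% of the 33277 promoters of nuclear genes. The I-box GATAAG was found in 26 (53.1%), against 13.1%. Either motif was present in 35 promoters and both in 12, among them RBCS1A, RBCS2B, RBCS3B, PSAH1, PSBP1 and PSBO1. The class of photosystem II held a G-box in 7 of 9 promoters and LHCII in 4 of 15, whereas all 15 LHCII promoters and none of the 4 RBCS promoters held CCAAT, which was present in 77.6% of the 49 and 44.9% of all. The letters GATAA, which are part of the I-box, were present in 87.8% of the 49 and 53.3% of all. The TATA box TATAAA was as frequent in both sets, 46.9% and 45.9%. The evening element AAAATATCT, known from clock-controlled genes with an evening peak, was found in none of the 49 and in 2.13% of all promoters. A match is a description of the letters and not evidence of binding.

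**Figure D5:**
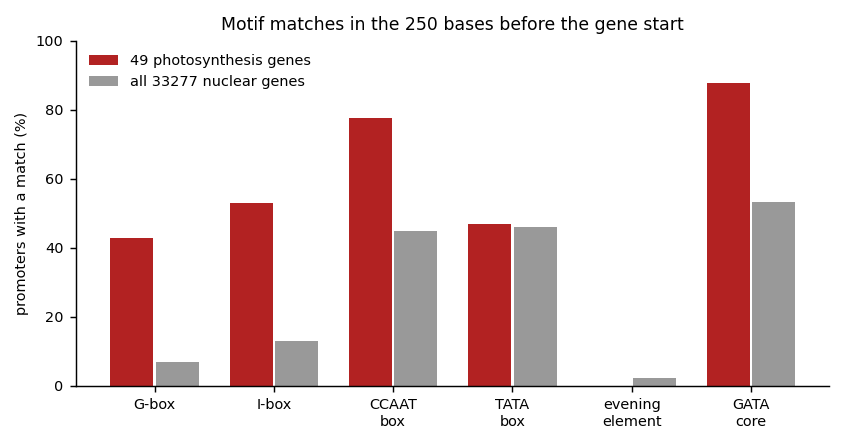
Percent of promoters with at least 1 exact match to each motif on either strand, for the 49 photosynthesis genes (red) and all 33277 nuclear genes (grey). The G-box is present in 42.9% and 6.74%, the I-box in 53.1% and 13.1%, and the TATA box in 46.9% and 45.9%.

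The promoters of PSAH1, the gene with the smallest p for H3K4me3 fold enrichment, and of PSBR, with the highest FPKM in Col-0, are shown with the same motifs in capitals. They lie at chr3:5469482-5469731 on the minus strand and chr1:29735766-29736015 on the plus strand.
PSAH1 promoter: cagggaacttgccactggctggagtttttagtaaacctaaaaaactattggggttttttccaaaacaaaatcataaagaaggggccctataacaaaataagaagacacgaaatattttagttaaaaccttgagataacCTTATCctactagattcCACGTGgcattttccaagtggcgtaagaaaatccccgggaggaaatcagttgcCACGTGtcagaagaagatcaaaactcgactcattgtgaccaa
PSBR promoter: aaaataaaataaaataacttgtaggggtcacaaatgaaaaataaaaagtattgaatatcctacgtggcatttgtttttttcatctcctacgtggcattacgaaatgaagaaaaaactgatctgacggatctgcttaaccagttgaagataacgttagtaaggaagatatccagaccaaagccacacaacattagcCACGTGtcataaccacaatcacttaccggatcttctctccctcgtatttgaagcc
PSAH1 held the G-box more than once and an I-box on the reverse strand, and PSBR held a G-box and no I-box.

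The related genes of photosynthesis were mixed in direction. Of 16 Calvin cycle genes, 7 were higher and 9 lower in 4XCol-0, with a median of −0.04, and RCA, which encodes Rubisco activase, was the highest with 3351 FPKM in 4XCol-0 and 3094 FPKM in Col-0. Of 19 chlorophyll synthesis genes, 14 were higher and 5 lower, with a median of 0.13, and the highest was CRD1, a subunit of the cyclase that forms the fifth ring of chlorophyll, with 1217 and 1144 FPKM. Of 11 other thylakoid genes with at least 1 FPKM, 6 were higher and 5 lower, and PSBTN, a small photosystem II subunit, was the highest with 4304 and 4805 FPKM. None of these genes passed 2-fold, and limma called none of the 16, 18 and 11 genes of these lists tested for H3K4me3 fold enrichment.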

How the data were processed

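RNA-seq, H3K4me3, H3K27me3 and anti-H3 data of 4XCol-0 and Col-0 were used, and Hi-C and input libraries were not analysed here. The authors aligned RNA-seq reads to TAIR10 with STAR and featureCounts at default parameters and deposited FPKM values, 1 per gene and genotype. How the 3 replicates were joined is not given in the sources used here. They aligned ChIP-seq reads with BWA and called peaks per library with MACS2, and the methods name anti-H3 reads as the control. For each peak they deposited its fold enrichment, a ratio over a control, and a q-value on the −log10 scale. The methods name no other control for the anti-H3 peaks, and the series also holds input libraries. The submitters' processing notes name R 3.4.1, and versions of the other tools are not given in the sources used here. Neither kind of file holds reads, so depth and its precision are unknown.

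Ratios were taken as log2(FPKM + 1), and counts used genes with at least 1 FPKM in a genotype and a limit of 2-fold. A peak was assigned to a gene by an overlap of at least 1 base with the gene span of the expression table, the highest fold enrichment was kept, and log2 values were centred on the median of each library. limma 3.58.1 in R 4.3.3 (eBayes with a trend, Benjamini-Hochberg over all genes tested, threshold 0.05) compared the genotypes. The code was also run on simulated data with added changes far larger than the spread between libraries. That run does not show whether smaller changes would be found. An exact permutation test of 2 against 2 libraries cannot go below p = 0.333. Replicate numbers give no shared batch in the labels, and deviations of same-numbered libraries correlated at −0.13 for H3K4me3 and 0.10 for H3K27me3 fold enrichment. For Col-0 H3K4me3 the replicate number in the file name is the reverse of that in the sample title, and the title was used.

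The promoter and coding sequences are from RefSeq TAIR10.1, whose locus tags matched 32820 of 33278 nuclear genes. Only 10584 of these had an identical span in both, so gene starts can differ between the annotations. The promoters were taken before the start in the expression table, and some may hold bases that RefSeq places inside the transcript. The photosynthesis genes and the other lists were chosen with earlier results of these data known. All 49 genes were accounted for, and those named with values are the 5 with the highest mean FPKM, the lowest of each class, the 3 highest and 3 lowest ratios, genes lacking an H3K4me3 peak in a library or having an H3K27me3 peak, the 3 smallest p-values of each H3K4me3 fit, the highest, middle and lowest fold enrichments, and near-identical copies. Others named were chosen after their values were seen. Of the related lists only the gene with the highest FPKM and genes past 2-fold are named in the comparison. The alternatives were a pseudocount of 0.1, upper-quartile scaling, no FPKM filter, no centring, a window of 500 bases around the gene start, peaks with −log10 q of at least 10, a replicate block, a minimum of 10% covered for H3K27me3, and leaving out each library in turn. Covered share of H3K27me3, the crossed block, the stretches of 50 bases and the correlation over all 49 genes were added after seeing the data.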

Additional observations from a re-analysis of the deposited data

How the results depend on the processing

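FPKM: with a pseudocount of 0.1, 483 genes were at least 2-fold higher and 238 lower in 4XCol-0, against 201 and 133 with a pseudocount of 1, and 0 photosynthesis genes passed under any setting. Upper-quartile scaling moved their median to −0.16. H3K4me3 fold enrichment: 11 genes were called, against 0 without centring and 31 with peaks within 500 bases of the gene start, and no photosynthesis gene was called in these. Leaving out each library gave 0 (without 4XCol-0 replicate 1) to 227 (without Col-0 replicate 2) genes called, 0 to 2 photosynthesis genes and a median of −0.21 to 0.10. H3K4me3 covered share: 150 genes were called with only peaks of −log10 q of at least 10, and 0 to 701 with each library left out (701 without 4XCol-0 replicate 1), with 0 photosynthesis genes and a median of −2.09 to 7.88 points. H3K27me3: fold enrichment called 15 genes, 90 without centring and 0 to 254 with each library left out (254 without Col-0 replicate 1), and covered share 21 and 50 to 1053, always without RBCS2B. At a minimum of 10% covered RBCS2B was still the 1 photosynthesis gene with H3K27me3. The cause of these changes was not tested.

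With the replicate number as a block, 1 gene was called for H3K4me3 fold enrichment, 0 for covered share, 195 for H3K27me3 fold enrichment and 0 for H3K27me3 covered share, and no photosynthesis gene in any. With the pairing crossed, which joins the libraries whose peak names end in the same word, 0 genes were called for H3K4me3 fold enrichment and 0 for covered share. The block changed no call of a photosynthesis gene. The peak lists and FPKM values carry no reads, so a difference that was not called may lie below what 2 libraries per genotype can show.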

Other observations

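The regulators of light responses and greening are given as values without a test. Of 15 such genes, 13 were higher and 2 lower in 4XCol-0, with a median log2 ratio of 0.31, or 0.25 after upper-quartile scaling. Of all genes with at least 1 FPKM, 61.4% were higher. None of the 15 passed 2-fold on the log2(FPKM + 1) scale, where CGA1 had 0.91, and with a pseudocount of 0.1 CGA1 passed it at 1.54. The highest was GLK2, a transcription factor that promotes chloroplast development, with 140 FPKM in 4XCol-0 and 127 FPKM in Col-0, while its paralogue GLK1 had 68.4 and 87.2 FPKM. GNC and CGA1, GATA factors that promote greening, had 11.5 and 2.15 FPKM in 4XCol-0 and 6.34 and 0.674 FPKM in Col-0. PHYB, a red light receptor, had 23.8 FPKM in 4XCol-0 and 17.8 FPKM in Col-0. limma called 0 of the 14 tested for H3K4me3 fold enrichment.

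GLK1, GNC and CGA1 lay under both H3K4me3 and H3K27me3 peaks in all 4 libraries of each mark, as did the chlorophyll synthesis genes GSA1 and HEME2 and the light-stress gene ELIP1. Among the photosynthesis genes only RBCS2B did so. These genes were named after their values were seen.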
